A study of Mus musculus with 29 samples.

Results

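The genes of DNA replication and mitosis were examined in RNA-seq libraries of sorted mouse pro-B cells with and without the transcription factor Pax5. The 49 genes comprise 25 replication genes and 24 mitosis genes, which were matched by name to 49 of the 24732 entries of the mm9 tables and to 49 of the 25588 entries of the mm10 tables. All 49 exceeded the filter on low values, a mean above 1 TPM, in each genotype. TPM, a measure of transcript abundance corrected for transcript length, adds up to 1000000 in every library and keeps no record of sequencing depth.

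The study investigated a mouse model of B-cell acute lymphoblastic leukemia that expresses a Pax5-Jak2 fusion. It defined regulated Pax5 target genes by the comparison of Pax5+/+ with Pax5-/- cells together with Pax5 binding measured by ChIP-seq. Of the 8 libraries, 3 came from wild-type (Pax5+/+) and 2 from Pax5-/- C57BL/6 mice, whose age is not given in the sources used here, and 3 came from C57BL/6 mice at the age of 3 weeks that the labels call Pax5(+/+) Meox2-cre. In the Meox2-Cre mice, Cre recombinase is expressed ubiquitously from the Meox2 locus, their cells were pooled before sequencing per the labels, and a table of the study lists the same libraries as Pax5 heterozygous. All cells were sorted from bone marrow ex vivo, and cells of a normal Pax5 genotype were defined by markers that include B220+Kit+CD2-IgM-IgD- whereas the markers of Pax5-deficient progenitors include B220+Kit+Ly6D+. Genotype and sort gate therefore cannot be told apart. The labels do not say whether the libraries of a genotype came from separate mice, so that the p-values measure the spread between these libraries.

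A cell that divides first licenses its replication origins, when Cdc6 and Cdt1 load the MCM helicase onto DNA, and then activates the helicase with Cdc45 and the GINS complex to copy its genome in S phase. Genes of this step are known targets of the E2F factors, whereas genes of the later steps, chromosome condensation, spindle assembly and segregation, are switched on in G2 by the MuvB complex with B-Myb and Foxm1, often through a promoter motif called CHR. In the bone marrow, pro-B cells divide in response to interleukin-7 while they rearrange their immunoglobulin heavy-chain genes. Since whole populations were sequenced, a smaller fraction of cells in a cell cycle phase and less RNA of a gene per cell cannot be told apart.

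The targeted gene, Pax5, was expressed at 342, 386 and 391 TPM in Pax5+/+ and at 43.0 and 39.1 TPM in Pax5-/- cells, a log2 fold change of -3.17 ± 0.106 (SE). In contrast, Ly6d was at 190.0 to 270.5 TPM in Pax5+/+ and at 2258 and 3033 TPM in Pax5-/- cells, Ly6D being a marker of the gate of the Pax5-deficient cells. Markers of other cell types differed between libraries. The summed level of the erythroid markers, of which 5 of 10 exceeded 1 TPM, ranged from 167 to 378 TPM in the Pax5+/+ libraries. In the Pax5-/- libraries it ranged from 13.2 to 104 TPM. The globin genes Hba-a1, Hba-a2 and Hbb-b1 were listed at or near 0 in these tables, and the globin gene Hbb-b2 had no entry in them. The sum of 10 myeloid markers ranged from 52.8 to 269.7 TPM in the Pax5+/+ and from 72.3 to 106 TPM in the Pax5-/- libraries. That of 8 T and NK cell markers ranged from 70.7 to 84.9 TPM and from 219 to 229 TPM. Of these 8, Cd3d, Cd3e, Cd3g and Cd8a were below 1 TPM, and Lck made up most of the sum. Lck was at 70.9, 54.8 and 72.2 TPM in Pax5+/+ and at 196 and 198 TPM in Pax5-/- cells.

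The promoters of the 2 groups differed in the letters they held. Windows from 250 bases before to 50 bases after the start site, from RefSeq in the build GRCm38.p6, were found for 40 of the 49 genes, namely 21 replication and 19 mitosis genes. The CHR letters TTTGAA were present on either strand in 13 of 19 mitosis genes (68.4%) and in 2 of 21 replication genes (9.52%), compared with 18.1% of the first windows of 27025 genes. The E2F letters, which are TTT followed by 2 letters that are each C or G and then by CGC, were present on either strand in 8 of 21 replication genes (38.1%) and in 1 of 19 mitosis genes (5.26%), compared with 2.32% of all genes. The CCAAT box was found in 14 of 21 replication genes (66.7%), 16 of 19 mitosis genes (84.2%) and 37.9% of all genes, and CHR and CCAAT occurred together in 13 of 19 mitosis genes compared with 7.12% of all. No motif contains another. Such a match is a description of the letters and not evidence of a bound site.

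Shown here are the 100 bases before the start site of 3 mitosis genes with CHR letters and of 3 replication genes, to set the letters of genes that fell (Rfc3 and Rrm2) beside those of an MCM subunit. Capitals mark the motifs, and ATTGG and TTCAAA are CCAAT and TTTGAA on the opposite strand. The regions are chr10:69352913-69353012 (minus strand) for Cdk1, chr4:118437344-118437443 (minus strand) for Cdc20, chr2:164769829-164769928 (plus strand) for Ube2c, chr1:128359706-128359805 (minus strand) for Mcm6, chr5:151651209-151651308 (minus strand) for Rfc3 and chr12:24708154-24708253 (plus strand) for Rrm2.
Cdk1: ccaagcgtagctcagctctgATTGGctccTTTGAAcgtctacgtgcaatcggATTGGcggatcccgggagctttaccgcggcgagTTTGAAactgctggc
Cdc20: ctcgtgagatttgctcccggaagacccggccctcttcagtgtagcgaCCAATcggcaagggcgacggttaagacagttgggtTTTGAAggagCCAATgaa
Ube2c: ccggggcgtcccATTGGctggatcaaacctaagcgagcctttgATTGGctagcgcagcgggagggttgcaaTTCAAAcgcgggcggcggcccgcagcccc
Mcm6: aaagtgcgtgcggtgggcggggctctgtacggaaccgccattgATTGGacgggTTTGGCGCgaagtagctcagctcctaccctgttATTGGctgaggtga
Rfc3: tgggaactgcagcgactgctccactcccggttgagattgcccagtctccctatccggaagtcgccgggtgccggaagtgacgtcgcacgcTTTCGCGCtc
Rrm2: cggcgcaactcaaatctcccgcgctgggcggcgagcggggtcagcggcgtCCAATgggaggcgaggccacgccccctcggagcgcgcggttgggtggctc
The CHR letters closest to the start began at position -15 in Cdk1, -18 in Cdc20 and -29 in Ube2c, counted from the start site. The E2F letters began at -47 in Mcm6 and at -10 in Rfc3. Rrm2 held a CCAAT box at -50 and no E2F letters of this form in its window, which says nothing about whether E2F binds there. Among the replication genes, the E2F letters were present in 1 of 7 that were lower in Pax5-/- cells and in 7 of 14 that were not.

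The 24 mitosis genes were lower in the Pax5-/- libraries almost throughout, whereas most of the 25 replication genes were not. By limma, with Benjamini-Hochberg adjustment over the 12066 entries tested and an adjusted p below 0.05, 23 mitosis genes fell (95.8%) and 0 rose, 1 not passing the test. Of the replication genes, 8 fell (32%), 1 rose and 16 did not pass. The background was high, since 21.5% of all entries tested were lower and 15.6% were higher by the same test. The median log2 fold change was -0.81 for the mitosis genes (quartiles -0.92 and -0.70) and -0.13 for the replication genes (quartiles -0.45 and 0.059), beside -0.12 for all entries (quartiles -0.47 and 0.28). Both Pax5-/- libraries were below every Pax5+/+ library for 24 of 24 mitosis genes and for 10 of 25 replication genes, compared with 37.4% of all entries, and both were above every Pax5+/+ library for 0 and 2 of these genes, compared with 26.1% of all entries. The sign of the log2 fold change was negative for 24 mitosis and 16 replication genes, compared with 59.3% of all entries. With 1 Pax5-/- library left in the fit, fewer genes passed the test. Without Pax5-/- library 1, 9 mitosis and 5 replication genes were lower and 0 replication genes were higher, and the count over all entries fell from 2596 to 990. Without Pax5-/- library 2, 7 mitosis and 4 replication genes were lower, and 825 of all entries were. Of the genes called with all libraries, 18 no longer passed without library 1 and 20 without library 2. In these fits, which take the spread from the Pax5+/+ libraries, the median of the mitosis genes was -0.79 and -0.80, respectively.

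**Figure D1:**
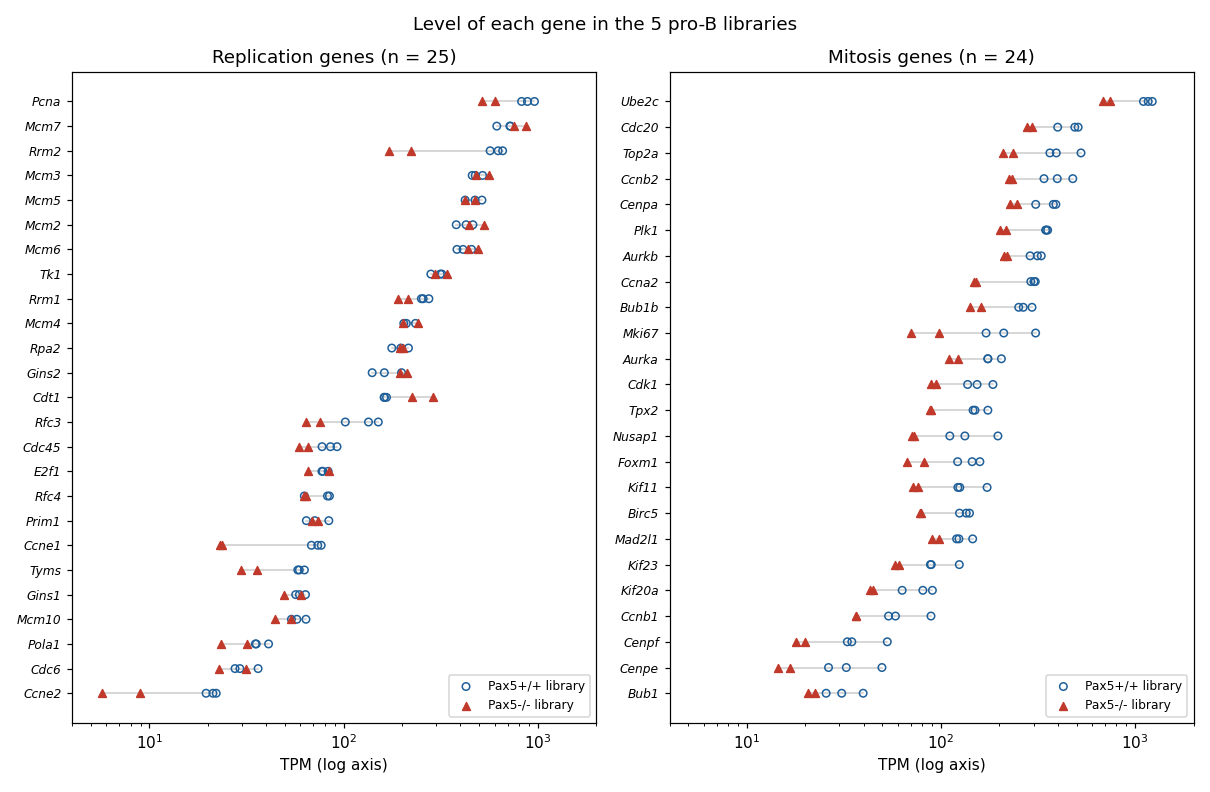
Levels of the 25 replication genes (left) and the 24 mitosis genes (right) in TPM on a log axis, with a symbol for each of the 3 Pax5+/+ (circles) and 2 Pax5-/- (triangles) libraries and a grey line over their range. The triangles lie to the left of the circles for 24 of 24 mitosis genes and for 10 of 25 replication genes.

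The changes were moderate in size. At the thresholds of the study, which ask for more than 3-fold, a mean above 5 TPM in a genotype and an adjusted p below 0.05, 2 replication genes (Rrm2 and Ccne1) and 0 mitosis genes were lower, and 0 of the 49 genes were higher, compared with 3.89% and 3.35% of the entries that could be called. The 2 genes lie just past the threshold, Rrm2 at 3.14-fold and Ccne1 at 3.11-fold by the ratio of mean TPM, and Ccne2 (2.85-fold) and Mki67 (2.73-fold) lie just below it. Under rescaling by median ratios or quantile normalization, 0 genes were lower at these thresholds. The count was 4 without Pax5-/- library 1, 1 without Pax5-/- library 2 and 1 without Pax5+/+ library 3.

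**Figure D2:**
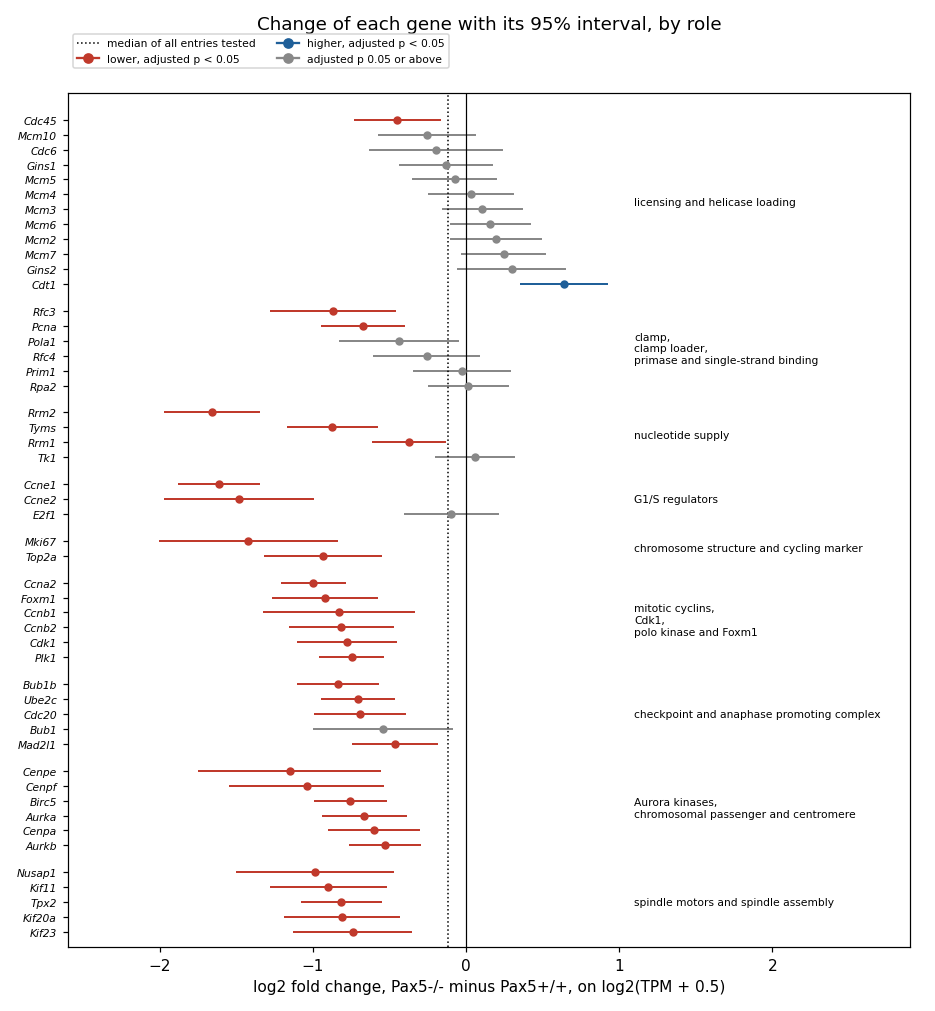
Log2 fold change of each gene in Pax5-/- relative to Pax5+/+ libraries with its unadjusted 95% interval from limma, grouped by role, where color gives the direction of genes with an adjusted p below 0.05. The 6 MCM subunits lie around 0, the mitosis genes lie between -1.42 and -0.46, and the dotted line is the median of all entries (-0.12).

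The MCM helicase, a ring of Mcm2 to Mcm7 that unwinds DNA at the fork, did not differ between the genotypes by the test. None of its 6 subunits passed the test, and their median log2 fold change was 0.13. Mcm7 was at 719, 616 and 723 TPM in Pax5+/+ and at 868 and 759 TPM in Pax5-/- cells, so the groups did not overlap, but its log2 fold change of 0.25 ± 0.117 (SE) had an adjusted p of 0.135 by limma. It reached 0.0485 under quantile normalization. Mcm3 was at 520.3, 459.8 and 476 TPM and at 564 and 483 TPM, and the groups overlapped. The 95% intervals of the 6 log2 fold changes lay between -0.34 and 0.52. Mcm5, at -0.073, changed its sign to 0.033 under rescaling by median ratios. The summed level of the 6 subunits was 2867, 2514 and 2722 TPM in the Pax5+/+ and 3168 and 2749 TPM in the Pax5-/- libraries.

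Among the factors that load and activate the helicase, Cdt1 rose and Cdc45 fell. Cdt1, which brings MCM to the origin and lies at chr8:125091915-125097028 (plus strand) in mm9, was at 166, 162 and 162 TPM in Pax5+/+ and at 288 and 226 TPM in Pax5-/- cells. This gene was the member that rose, with a log2 fold change of 0.64 ± 0.119 and an adjusted p of 0.00541 by limma (0.0589 without Pax5-/- library 1). Cdc45, a subunit of the active helicase, was at 85.6, 77.5 and 92.6 TPM and at 65.6 and 59.0 TPM, without overlap, which corresponds to -0.45 ± 0.118 with an adjusted p of 0.0219 (0.0542 in a fit without the intensity trend). Its partner subunits Gins1 and Gins2 had log2 fold changes of -0.13 and 0.30, and neither passed the test. Cdc6, which acts with Cdt1, and Mcm10, which helps to activate the helicase, had values of -0.19 and -0.25 with adjusted p of 0.438 and 0.175.

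At the replication fork, the clamp and a subunit of its loader fell. Pcna, the sliding clamp that holds the polymerases on DNA, had the highest level of the replication genes in Pax5+/+ cells, with 962, 826 and 885 TPM compared with 603 and 518 TPM in Pax5-/- cells. Its log2 fold change was -0.67 ± 0.114 with an adjusted p of 0.00373. Rfc3, a subunit of the clamp loader, was at 134, 102 and 151 TPM and at 75.8 and 63.9 TPM, again without overlap. It fell by 0.87 on the log2 scale (SE 0.174, adjusted p = 0.00729 by limma), whereas Rfc4, another subunit of the loader, had a value of -0.26 with an adjusted p of 0.208. The single-strand binding protein Rpa2 was at 197, 177 and 216 TPM and at 201 and 196 TPM, so that the Pax5-/- values lay within the range of the Pax5+/+ values. The primase subunit Prim1 (-0.026) and the polymerase alpha subunit Pola1 (-0.44, adjusted p = 0.0747) did not pass the test.

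The genes of deoxynucleotide supply did not change alike. Rrm2, the small subunit of ribonucleotide reductase that limits deoxynucleotide synthesis and is made in S phase, was at 659.9, 569 and 626 TPM in Pax5+/+ and at 222 and 172 TPM in Pax5-/- cells. It lies at chr12:25393106-25399011 (plus strand) in mm9 and fell by 1.66 on the log2 scale (SE 0.131, adjusted p = 0.000111 by limma), the largest change of the 49 genes in this fit. The large subunit, Rrm1, was at 275, 252 and 257 TPM and at 215 and 189.9 TPM, a log2 fold change of -0.37 ± 0.101 with an adjusted p of 0.0247. This p rose to 0.137 under rescaling by median ratios and to 0.0529 without Pax5+/+ library 1. It was 0.0732 without the intensity trend and 0.170 after removal of the trend over transcript length. The log2 fold change was -0.46 without Pax5-/- library 1 and -0.28 without library 2. The ratio of Rrm2 to Rrm1 was 2.4, 2.26 and 2.43 in the Pax5+/+ libraries, 1.03 and 0.907 in the Pax5-/- libraries. Tyms, the thymidylate synthase, was at 58.1, 59.2 and 62.9 TPM and at 35.7 and 29.7 TPM, and its log2 fold change was -0.87 ± 0.124 (adjusted p = 0.00171). In contrast, Tk1, the thymidine kinase of the salvage pathway, was at 321, 282 and 315 TPM and at 342 and 296 TPM, and these groups overlapped (log2 fold change 0.059 with a 95% interval from -0.20 to 0.32).

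Of the regulators of S phase entry, both E-type cyclins fell. Ccne1, cyclin E1, which activates Cdk2 at the G1/S transition, lies at chr7:38883003-38892553 (minus strand) in mm9. It was at 73.7, 68.3 and 76.7 TPM in Pax5+/+ and at 23.2 and 23.7 TPM in Pax5-/- cells, a log2 fold change of -1.61 ± 0.112 with an adjusted p of 6.16e-05 by limma. Ccne2, cyclin E2, was at 19.6, 21.2 and 22.1 TPM and at 8.97 and 5.73 TPM, which gave -1.48 ± 0.207 (adjusted p = 0.00158). In both genes the highest Pax5-/- value was far below the lowest Pax5+/+ value. E2f1, 1 of the activating E2F factors, was at 78.2, 83.3 and 77.4 TPM and at 84.3 and 65.8 TPM, with no difference beyond the spread between libraries.

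The mitotic cyclins and kinases fell together. Cyclin A2 (Ccna2), which acts in S phase and G2, was at 290.4, 306 and 302 TPM in Pax5+/+ and at 151 and 148 TPM in Pax5-/- cells, a log2 fold change of -0.997 ± 0.088 with an adjusted p of 0.000187 by limma. Cdk1, the kinase that starts mitosis, was at 154, 137 and 185 TPM and at 89.2 and 94.3 TPM (-0.78 ± 0.138, adjusted p = 0.00436). Its B-type cyclin partners were at 397, 339.5 and 478 TPM and at 225 and 231 TPM for Ccnb2, and at 58.3, 53.7 and 88.9 TPM and at 36.5 and 36.6 TPM for Ccnb1. Both fell, by 0.81 and 0.83 on the log2 scale with adjusted p of 0.00444 and 0.0183. Plk1, the polo-like kinase of mitotic entry and exit, was at 355, 346 and 349 TPM and at 201 and 216 TPM, with a log2 fold change of -0.75 ± 0.0893 and an adjusted p of 0.000759. Foxm1, the factor that activates mitosis genes, was at 122, 145 and 159 TPM and at 82.1 and 67.1 TPM, and it fell by 0.92 (SE 0.145, adjusted p = 0.00274).

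Of the genes of the spindle checkpoint and of its target, the anaphase promoting complex, 4 of 5 fell. Ube2c, the ubiquitin-conjugating enzyme of the complex, had the highest level of the 49 genes in Pax5+/+ cells. It lies at chr2:164595398-164604322 (plus strand) in mm9 and was at 1226, 1105 and 1169 TPM in Pax5+/+ and at 685 and 744 TPM in Pax5-/- cells, which gave a log2 fold change of -0.71 (95% interval -0.94 to -0.47, adjusted p = 0.00168). Cdc20, which activates the complex, was at 509, 399 and 489 TPM and at 278 and 296 TPM (-0.69 ± 0.125, adjusted p = 0.00469). The checkpoint kinase-like protein Bub1b, at 266, 252 and 295 TPM and at 161 and 141 TPM, fell by 0.84 (adjusted p = 0.00128), and Mad2l1, which holds Cdc20 inactive, at 120.5, 124 and 146 TPM and at 97.6 and 90.3 TPM, by 0.46 (adjusted p = 0.0187, or 0.0526 without the intensity trend). Bub1, the kinase that recruits the checkpoint to kinetochores, was the mitosis gene that missed the test, at 30.8, 25.6 and 39.8 TPM and at 22.6 and 20.6 TPM (-0.54 ± 0.192, adjusted p = 0.0614 by limma). Its groups did not overlap either, and without Pax5+/+ library 2 its adjusted p was 0.033.

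All 6 genes of the Aurora kinases, the chromosomal passenger complex and the centromere fell, with log2 fold changes between -1.15 and -0.53. The Aurora kinases are required for spindle poles (Aurka) and chromosome attachment (Aurkb). Aurka was at 174, 175 and 205 TPM in Pax5+/+ and at 109 and 123 TPM in Pax5-/- cells, and Aurkb at 314, 288 and 329 TPM and at 219 and 211 TPM. Their adjusted p were 0.00403 and 0.0052 by limma. Survivin (Birc5), the partner of Aurkb, was at 135, 125 and 140.3 TPM and at 79.3 and 78.2 TPM (-0.75 ± 0.0996), and Cenpa, the histone H3 variant of centromeres, was at 379, 308 and 391 TPM and at 226 and 246 TPM (-0.60 ± 0.126). The kinetochore motor Cenpe, at 26.4, 32.6 and 49.7 TPM and at 16.6 and 14.4 TPM, and the kinetochore protein Cenpf, at 33.0, 34.8 and 52.9 TPM and at 19.9 and 17.9 TPM, were the least abundant of this group and had the larger changes (-1.15 ± 0.253 and -1.04 ± 0.213). For both, Pax5+/+ library 3 was well above the other Pax5+/+ libraries.

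The 5 genes of spindle motors and assembly fell by 0.74 to 0.99 on the log2 scale. Nusap1, which bundles microtubules, was at 133, 111 and 197 TPM in Pax5+/+ and at 70.6 and 72.7 TPM in Pax5-/- cells (-0.99 ± 0.218, adjusted p = 0.0109 by limma). Tpx2, the activator of Aurka, was at 146, 149.8 and 174 TPM and at 89.3 and 88.1 TPM (-0.81 ± 0.110, adjusted p = 0.00137). Kif11, the motor that separates the spindle poles, was at 122, 125 and 173 TPM and at 76.1 and 71.9 TPM. It fell by 0.90, and the midzone motors Kif20a and Kif23 fell by 0.81 and 0.74, with adjusted p between 0.00458 and 0.0107 for the 3 motors. Kif20a was at 80.7, 63.2 and 90.4 TPM in Pax5+/+ and at 43.0 and 44.6 TPM in Pax5-/- cells. Kif23 was at 88.3, 89.2 and 124 TPM and at 58.0 and 60.5 TPM. The Pax5-/- values of each of these genes were nearly equal, and the Pax5+/+ values were more spread.

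Mki67 and Top2a, the remaining mitosis genes, act on chromosomes. Mki67 codes for Ki-67, a chromosome surface protein and common marker of cycling cells, and lies at chr7:142881471-142908062 (minus strand) in mm9. It was at 171, 211 and 307 TPM in Pax5+/+ and at 97.8 and 70.3 TPM in Pax5-/- cells, which corresponds to -1.42 ± 0.248 with an adjusted p of 0.00406 by limma, the largest change of a mitosis gene in this fit. Top2a, the topoisomerase that untangles sister chromatids, was at 393, 364 and 527 TPM and at 235 and 208 TPM (-0.93 ± 0.163, adjusted p = 0.00413). Again the groups did not overlap, and Pax5+/+ library 3 was the highest in both genes.

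Summed over the genes, the groups were apart for mitosis and overlapped for replication. The mitosis genes summed to 5725, 5308 and 6459 TPM in the Pax5+/+ libraries and to 3369 and 3392 TPM in the Pax5-/- libraries. The replication genes summed to 6434, 5656 and 6179 TPM and to 5862 and 5060 TPM, and these ranges overlapped. The ratio of the mitosis to the replication sum was 0.890, 0.938 and 1.05 in the Pax5+/+ and 0.575 and 0.670 in the Pax5-/- libraries. Ube2c contributed the most of the mitosis genes, and without it the sums were 4203 to 5291 TPM and 2648 to 2684 TPM.

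**Figure D3:**
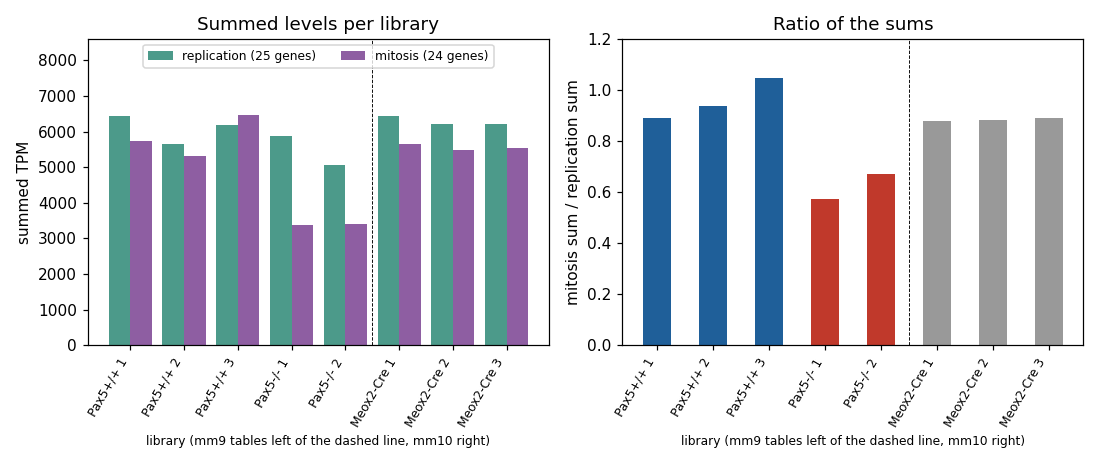
Summed TPM of the 25 replication and 24 mitosis genes (left) and the ratio of the mitosis to the replication sum (right) in each library, with the mm9 tables left and the mm10 tables right of the dashed line. The replication bar of Pax5-/- library 1 (5862 TPM) lies within the range of the Pax5+/+ libraries, and that of library 2 (5060 TPM) lies below it. The mitosis bars of the Pax5-/- libraries (3369 and 3392 TPM) and their ratios (0.575 and 0.670) lie below all Pax5+/+ libraries.

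The 2 Pax5-/- libraries differed from each other in replication genes more than in mitosis genes. Relative to the mean of the Pax5+/+ libraries, the median log2 difference of the mitosis genes was -0.80 in Pax5-/- library 1 and -0.79 in library 2, with 24 of 24 genes lower in each. The median of the replication genes was 0.019 in library 1 with 11 of 25 lower and -0.28 in library 2 with 20 of 25 lower. For all entries tested, these medians were -0.086 and -0.14. Among the Pax5+/+ libraries, library 3 was the highest for 20 of 24 mitosis genes (83.3%) and 13 of 25 replication genes (52%), compared with 53.5% of all entries. Without this library, 23 mitosis genes were still lower and their median was -0.71.

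Markers of some other cell types differed between the genotypes as well. The erythroid sum was 167, 320.0 and 378 TPM in the Pax5+/+ and 104 and 13.2 TPM in the Pax5-/- libraries, and 4 of the 5 erythroid markers tested were lower. The mitosis sums of the same libraries were 5725, 5308 and 6459 TPM in Pax5+/+ and 3369 and 3392 TPM in Pax5-/- cells. Of the myeloid markers, 2 of 9 tested were lower (22.2%) and 1 was higher (11.1%). Among all entries tested, 21.5% were lower and 15.6% higher, so the myeloid counts lay near the background. The T cell kinase Lck, Nkg7 and Cd4, 3 of the 4 T and NK cell markers tested, were higher in Pax5-/- cells and the other, Klrb1c, was lower, whereas the Cd3 genes were below 1 TPM. The 6 markers of pre-B and later B cells summed to 38.3 to 85.2 TPM and to 17.3 and 17.1 TPM, and of the 4 tested 3 were lower and 1 was higher. The part of these cell types in the mitosis result was not tested.

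Transcript length moved with the changes as well. Across all entries with a length, the median log2 fold change went from -0.022 for transcripts of up to 1500 nucleotides to -0.27 for those above 5000 nucleotides. The mitosis genes were below the median of all entries in each length class, from -0.60 against -0.022 for 1 gene of the shortest class to -1.09 against -0.27 for 4 genes of the longest. The medians in the classes between were -0.70, -0.75 and -0.87 against -0.046, -0.11 and -0.16. After the length trend was taken out of each library, a step chosen after seeing the data, 23 mitosis genes and 7 replication genes were lower. The medians were -0.69 and -0.030. The part of transcript length in the mitosis result was not tested.

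**Figure D4:**
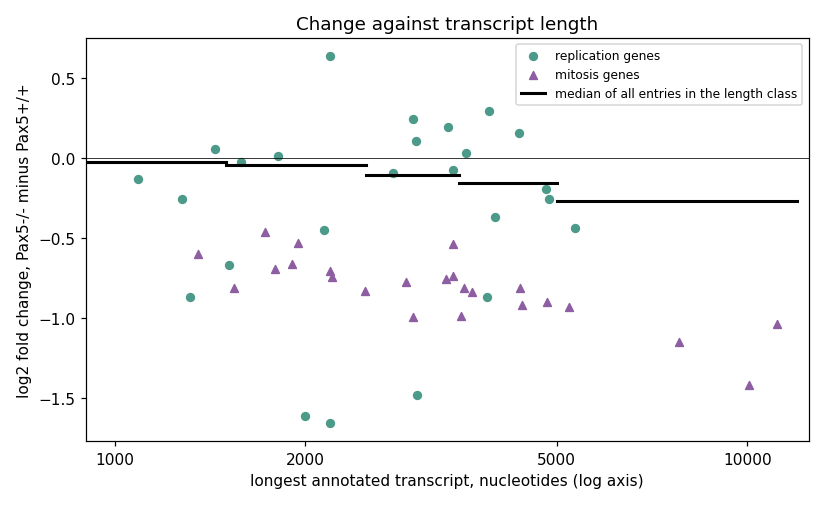
Log2 fold change of the 25 replication (circles) and 24 mitosis (triangles) genes against the length of their longest annotated transcript in nucleotides (log axis), with black bars for the median of all entries in each of 5 length classes. The bars go from -0.022 to -0.27, and the mitosis genes lie below the bar of their class, with Mki67, Cenpe and Cenpf as the longest.

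Other genes of the same pathways were examined next, in lists chosen with earlier results of these data known. Of 52 other mitosis genes, 43 were lower (82.7%), 0 were higher and 9 did not pass. Of all entries tested, 21.5% were lower and 15.6% higher. The median log2 fold change of the 52 genes was -0.79. Cdc25b, the phosphatase that activates Cdk1, was at 487, 541 and 580.3 TPM in Pax5+/+ and at 50.6 and 52.4 TPM in Pax5-/- cells, a log2 fold change of -3.36 ± 0.106 (adjusted p = 2.65e-06 by limma). It stood far outside the other genes of its list, of which the phosphatase Cdkn3 (-1.23), the kinetochore subunit Ndc80 (-1.20) and the abscission protein Cep55 (-1.15) followed. The count was 21 without Pax5-/- library 1 and 15 without library 2.

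Of 40 other replication genes, 9 were lower (22.5%), 1 was higher and 30 did not pass, with a median of -0.20, which is near the background of 21.5% lower entries. Asf1b, a histone chaperone of the fork, was at 322, 286 and 305 TPM in Pax5+/+ and at 102 and 89.7 TPM in Pax5-/- cells (-1.67 ± 0.105, adjusted p = 4.01e-05 by limma). Clspn, an adaptor of the replication checkpoint, had a log2 fold change of -0.98, the single-strand binding subunit Rpa3 of -0.77 and the nuclease Dna2 of -0.63, and all 3 passed the test. In contrast, Timeless, a component of the fork protection complex, was at 74.8, 72.3 and 78.2 TPM and at 113 and 96.1 TPM (0.47 ± 0.112, adjusted p = 0.0143). Without Pax5-/- library 2, 2 of the 40 were lower and 0 higher, and without library 1 Timeless was not called either.

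The transcription factors that control both groups were expressed at lower levels in part. Of 19 genes of the E2F family, their pocket protein inhibitors and the MuvB complex, 10 were lower (52.6%) and 0 higher. Of all entries tested, 21.5% were lower and 15.6% higher. The median log2 fold change of the 19 genes was -0.46. E2f2, an activating E2F, was at 377, 396 and 377 TPM in Pax5+/+ and at 61.7 and 46.1 TPM in Pax5-/- cells (-2.83 ± 0.133, adjusted p = 1.18e-05 by limma). Rb1, the retinoblastoma protein that inhibits E2F factors, was at 22.1, 27.1 and 31.4 TPM and at 6.15 and 5.87 TPM, a log2 fold change of -2.06 ± 0.184. The repressing factors E2f7 and E2f8 fell as well, with log2 fold changes of -1.72 and -1.5. B-Myb (Mybl2) fell by 0.61 on the log2 scale. The MuvB subunits Lin9, Lin37, Lin52 and Lin54 did not pass the test, whereas Rbbp4 was lower (-0.36). With 1 Pax5-/- library, 5 genes were lower without library 1 and 4 without library 2.

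**Figure D5:**
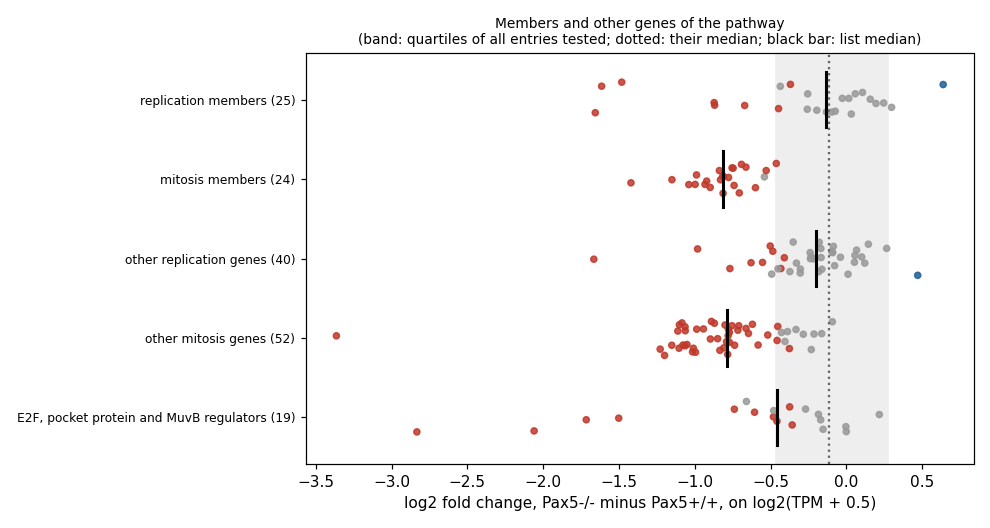
Log2 fold changes of the members and of 3 lists of other genes, 1 point per gene, in red for lower and blue for higher at an adjusted p below 0.05, with a black bar at the median of each list and the quartiles of all entries as a grey band. The medians of both mitosis lists (-0.81 and -0.79) lie left of the band, those of both replication lists (-0.13 and -0.20) within it, and Cdc25b (-3.36) and E2f2 (-2.83) lie far to the left.

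In the 3 Meox2-Cre libraries, which were processed with STAR on mm10 rather than TopHat on mm9, all 49 genes were expressed, and their values are given without a comparison to the other tables. The replication genes summed to 6443, 6214 and 6206 TPM and the mitosis genes to 5658, 5474 and 5528 TPM, which gives ratios of 0.878, 0.881 and 0.891. Ube2c was the most abundant with 992 ± 45.0 TPM (SD, n = 3), followed by Pcna with 724 ± 7.60 TPM. Mcm5 was at 634 ± 7.80 TPM, Rrm2 at 566 ± 26.7 TPM and Mki67 at 187 ± 14.8 TPM, while Cenpe was the least abundant at 25.1 ± 0.758 TPM. The median coefficient of variation over the 49 genes was 3.42% in these libraries. Markers of other cell types were present in them as well. The erythroid markers summed to 3182, 3978 and 2660 TPM, of which the globin gene Hbb-b2 made up 2705, 3475 and 2315 TPM. The myeloid markers summed to 631, 1251 and 460 TPM.

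Several genes share exon sequence with a neighbor, and featureCounts at its default setting uses no strand information, so that reads of the overlap cannot be told apart. The authors' tables add the mark OVL, taken here to mean overlap, to 9 of the 49 entries: Gins2, Rfc4, Tk1, Ccne2, Ccna2, Cdc20, Kif20a, Nusap1 and Foxm1. Overlaps were looked up in GENCODE vM1 (mm9), whereas the authors counted reads against a modified refGene annotation. In GENCODE vM1, the partner on the opposite strand is Ints8 for Ccne2, Exosc9 for Ccna2, Elovl1 for Cdc20, Cdc23 for Kif20a and Oip5 for Nusap1. Cdc45, Mcm7, Tyms and Ube2c, which carry no mark, overlap an exon of a neighbor on the opposite strand there as well. Whether they also do so in the annotation of the authors is not known. Of the 13 genes named here, 9 are among the lower ones, and their values are less certain than those of the other members. Outside the 49 genes, the entries of Clspn, Mybl2, Rbbp4, Fanci, Lck and the globin genes carry the mark as well, so the same limit holds for them.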

How the data were processed

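RNA of sorted pro-B cells was sequenced by the authors, and the deposited values are TPM, a length-corrected share of transcripts calculated by the authors from reads per gene. For the Pax5+/+ and Pax5-/- libraries, ribosomal RNA reads were removed, and the rest were aligned to mm9 with TopHat 1.4.1a and counted with featureCounts 1.5.0 at default settings against a refGene annotation that they had modified. The Meox2-Cre libraries were processed with STAR 2.4.2a on mm10 and featureCounts (versions also per the submitters' processing notes). The TPM of each library sum to 1000000, so the number of reads is unknown and no counting interval is given. The authors called genes with DESeq2 on counts, whereas the files used here hold TPM.

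Here, limma 3.58.1 (R 4.3.3, eBayes with trend) was used to compare 3 Pax5+/+ with 2 Pax5-/- libraries on log2(TPM + 0.5), without covariates, for entries with a mean above 1 TPM in a genotype, with Benjamini-Hochberg adjustment over all entries. Fold changes are on that scale, which understates changes of low genes. An exact permutation test of 3 against 2 libraries has 10 splits and cannot give p below 0.1, so it was not used. The fit was tested on simulated data. The genes and lists were chosen with earlier results of these data known. Values per library are given for genes past the test and, by role, for the 2 with the highest level or largest change. Up to 4 genes per direction are named from each wider list, and more from the regulators and the recombination and Fanconi genes. Coordinates and transcript lengths are from GENCODE vM1 (mm9), lengths covering 88.9% of the entries tested and all 49 genes. Replicate numbers only name the libraries. Alternatives were pseudocounts of 0.1 and 1, no filter or 5 TPM, no trend, robust fit, median ratio rescaling, quantile normalization, removal of immunoglobulin and T cell receptor entries, the ratio of mean TPM, each library left out, 2-fold and an adjusted p below 0.01. Removal of the length trend by lowess, and the list of recombination and Fanconi genes, were chosen after seeing the data. The ChIP-seq samples and the other RNA-seq genotypes of the study are not analysed here. Python 3.11.15, numpy 2.4.6, pandas 2.3.3 and matplotlib 3.10.9 were used.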

Additional observations from a re-analysis of the deposited data

How the results depend on the processing

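All 24 mitosis genes kept a negative log2 fold change in every alternative run. Under rescaling by median ratios, quantile normalization and removal of the length trend, the median of all entries moved from -0.12 to -0.014, -0.016 and -0.016. The replication median moved to -0.025 under median ratios, to -0.045 under quantile normalization and to -0.030 without the length trend, and the mitosis sum of the Pax5-/- libraries had a mean of 3533 TPM under median ratios. Genes past the study thresholds numbered 0, 0 and 1 under these 3 settings and 6 at 2-fold. Among replication genes, 2 were higher under quantile normalization, and among the other replication genes 2, 2 and 3 were higher under the 3 settings. At an adjusted p below 0.01, 5 other replication genes were lower and 0 higher, 6 regulators and 2 recombination and Fanconi genes were lower, 0 of the latter were higher, and 1348 of all entries were lower and 1088 higher. Without a filter, 0 recombination and Fanconi genes were higher. The cause of these moves was not tested.

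Leaving out 1 library gave ranges of 7 to 24 mitosis genes and 4 to 9 replication genes lower, 0 to 2 replication genes higher, a replication median of -0.28 to 0.019, 1 to 4 genes lower at the study thresholds, 15 to 44 other mitosis genes lower, 2 to 8 other replication genes lower and 0 to 1 higher, 4 to 12 regulators lower, 0 to 7 recombination and Fanconi genes lower and 0 to 1 higher, and 825 to 3233 of all entries lower and 704 to 1977 higher. The lowest counts of lower members came without a Pax5-/- library, where the lone library is assumed to vary like the others. Log2 fold changes that changed sign were small. Under median ratios they were 0.033 for Mcm5, 0.011 for E2f1 and 0.079 for Prim1, under quantile normalization 0.023 for Mcm5 and 0.068 for Prim1, and without the length trend 0.021 for Mcm5. With 1 library left out, Mcm3 ranged from -0.0040 to 0.22, Mcm4 from -0.098 to 0.16, Mcm5 from -0.16 to 0.0094, Cdc6 from -0.42 to 0.028, Gins1 from -0.28 to 0.019, Rpa2 from -0.057 to 0.086, Tk1 from -0.045 to 0.16, E2f1 from -0.27 to 0.083 and Prim1 from -0.11 to 0.077. The depth in reads is unknown, so the counting error of the low genes is not known either. No paired analysis was possible because the replicate numbers used here follow accession order and tie no libraries of different genotypes to each other.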

Other observations

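Genes of recombination repair and of the Fanconi pathway, which act at stalled forks and breaks in S phase, were examined as a further list that was chosen after the values of the replication and mitosis genes had been seen. Of 24 genes, 6 were lower in Pax5-/- cells (25%, beside 21.5% of all entries tested) and 1 was higher (4.17%, beside 15.6%), with a median log2 fold change of -0.21. Rad51c, which acts in recombination repair, was at 11.2, 12.7 and 14.8 TPM in Pax5+/+ and at 5.97 and 4.94 TPM in Pax5-/- cells (-1.16 ± 0.195, adjusted p = 0.00347 by limma). Fancm, a translocase that binds stalled forks, was at 10.1, 10.4 and 12.7 TPM and at 5.62 and 4.47 TPM (-1.06 ± 0.199, adjusted p = 0.00549). Fancb, Fanci, Rbbp8 and Brca1 were lower as well, with log2 fold changes between -0.98 and -0.52. In contrast, Rad51b was at 2.23, 3.02 and 4.31 TPM and at 6.00 and 6.64 TPM, without overlap (0.92 ± 0.278, adjusted p = 0.0349). Without Pax5-/- library 1, 2 of the 24 genes were lower, without Pax5-/- library 2 0 were and without Pax5+/+ library 2 3 were, and in each of these fits 0 were higher.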
